A study of Mus musculus with 6 samples.

Results

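The mouse genes for the subunits of the respiratory chain and the ATP synthase were compared in 6 libraries of cultured fat stromal cells, 3 kept with irisin/HSP90α and 3 with PBS. Members were the rows of the gene count table whose symbols follow the naming patterns of the nuclear-encoded subunits: Nduf with a, b, c, s or v and a digit, Sdha to Sdhd, Uqcr, Cox4 to Cox8 with a letter, and Atp5. Of 55011 genes in the table, 101 had such a symbol, and 14 were left out, namely 13 with a pseudogene suffix and Ndufa4l2. The 87 members comprised 38 of complex I, 4 of complex II, 8 of complex III, 20 of complex IV and 17 of the ATP synthase. Ndufa11b, Ndufb4c, Ndufs6b and Cox6c2, which the naming patterns took and which had too few counts to be tested, are 4 rows that GENCODE M21 lists as processed pseudogenes. Ndufa4 was placed with complex IV, where its protein is found, and not with complex I, after which it was named.

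The respiratory chain sits in the inner mitochondrial membrane. Complexes I and II pass electrons from NADH and succinate to coenzyme Q, complex III passes them on to cytochrome c, and complex IV passes them to oxygen. Complexes I, III and IV pump protons as they do so, and the ATP synthase uses the proton gradient to make ATP. Most subunits are encoded in the nucleus, and a few core ones in the mitochondrial genome. Some subunits of complex IV occur as isoforms from separate genes. Cox4i2 takes the place of Cox4i1 under low oxygen and in tissues such as lung, and Cox6a2, Cox7a1 and Cox8b are isoforms of heart and skeletal muscle, the last of these and Cox7a1 also of brown fat.

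In the irisin group, stromal cells from visceral fat that were negative for an EGFP reporter of Il33 were cultured with irisin/HSP90α at 10 nM for 3 days (n = 3). In the PBS group the same kind of cells received phosphate-buffered saline for 3 days (n = 3). Irisin is a hormone cleaved from Fndc5, a membrane protein of muscle, and HSP90α is a heat shock chaperone found within and outside cells. The labels name the treatment as irisin/HSP90α or as irisin alone, and do not say whether HSP90α was also added to PBS wells. All 6 libraries carry the reporter-negative label and come from the same fat depot, called eWAT in the design text. Whether replicates were separate animals, cultures or wells is not stated either, so the p-values rest on a spread between samples that may be technical.

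Totals were 5360724 to 6588363 counts in irisin libraries and 5271309 to 6745799 counts in PBS libraries. All 8 fat stromal markers were detected, and their summed level was 43110 to 47300 CPM in irisin libraries and 31130 to 37680 CPM in PBS libraries. They did not move together, since 2 of the 8 rose, 2 fell and 4 did neither in the test described below. Levels are in CPM, counts scaled to library size with edgeR's TMM factors. These factors were 0.969 to 0.981 in irisin libraries and 1.022 to 1.034 in PBS libraries. Markers of mature adipocytes were lower in irisin libraries, where the sum of the list was 163 to 217 CPM against 705 to 1143 CPM in PBS libraries, and 6 of 6 tested members fell. PBS replicate 3 and irisin replicate 1 stood apart from the other libraries on the second principal component, which held 23.9% of the variance. In bulk libraries fewer cells of a type and less RNA per cell cannot be told apart.

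The subunit genes as a group stayed close to their PBS level after 3 days with irisin. A gene was called where its adjusted p was under 0.05 (edgeR, quasi-likelihood F-test, Benjamini-Hochberg method over 12296 tested genes). Of the 87 members 78 had enough counts to be tested. Of these, 1 was called higher, Cox4i2, against 4.2% of all tested genes, and 0 were called lower, against 3.22%. In either direction 7.42% of all tested genes were called. At an unadjusted p under 0.05, 3 members were higher and 2 lower (6.41% of the tested members), against 18.2% of all tested genes. DESeq2 called 0 members lower as well, and at an unadjusted p under 0.05 it also had 0 lower. By limma-voom 0 were called lower and 1 was lower at an unadjusted p under 0.05. With total counts in place of TMM factors 10 were lower and 1 higher at an unadjusted p under 0.05, and without PBS replicate 3 and irisin replicate 1 together 5 were lower and 3 higher.

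The fold changes of the members lay in a narrow band. Their median log2 fold change (LFC, irisin minus PBS) was -0.03, against -0.01 for all tested genes, and the middle part of the members, from the lower to the upper quartile, ran from -0.09 to 0.01. The 95% interval of the fold change lay within 1.5-fold in either direction for 73 of 78 members (93.6%), against 54.6% of all tested genes. The exceptions were Ndufa12, Ndufb4, Cox4i2, Cox6a2 and Atp5l. The tested members were more abundant, with a median of 93.9 CPM in PBS libraries against 24.8 CPM for all tested genes, and intervals are narrower at higher counts. Among the 64 members with a mean of at least 50 CPM, 0 were called, against 11.2% of the 3775 tested genes of that level. All 64 had intervals within 1.5-fold, against 83.8% of those genes. The median standard error of the members' LFC was 0.10.

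**Figure D1:**
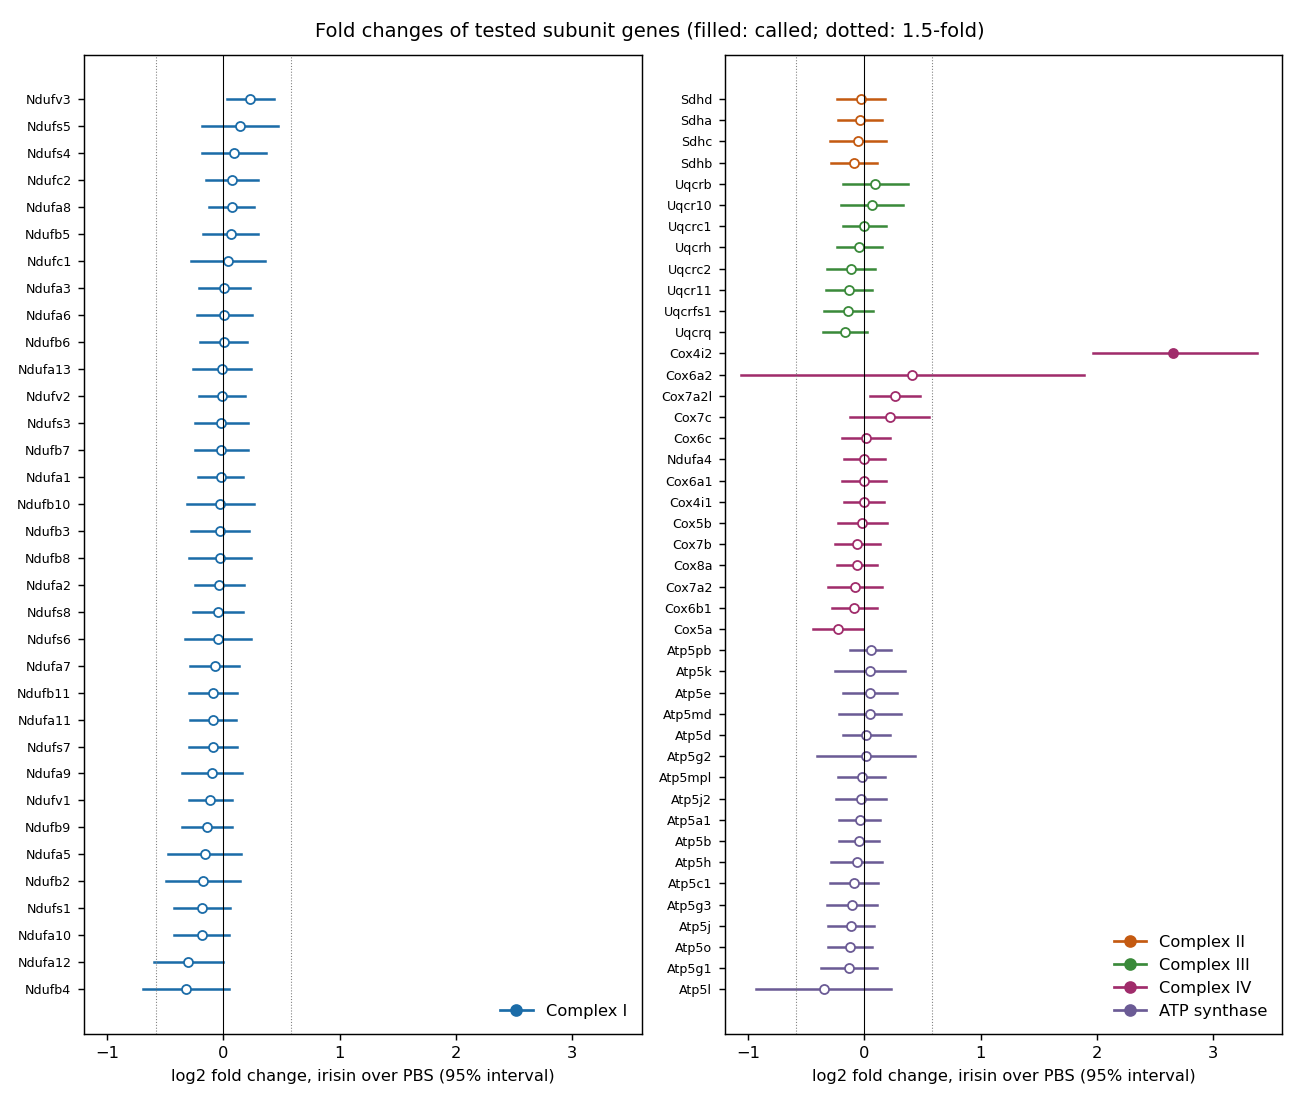
Log2 fold change, irisin over PBS, of 77 tested subunit genes, by complex, with 95% intervals (3 libraries per group). Filled points are genes with an adjusted p under 0.05 and dotted lines mark a 1.5-fold change; Cox4i2, at 2.66, is the filled point, and most other points lie between -0.35 and 0.26.

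Of the 78 tested members 55 had a negative LFC and 23 a positive one, and this split moved with the libraries used. Without PBS replicate 3, 34 of 78 were negative and the members' median was 0.01. Without both PBS replicate 3 and irisin replicate 1, 47 of 78 were negative and the median was -0.03. With total counts in place of TMM factors 70 of 78 were negative with a median of -0.11, beside a median of -0.09 for all genes. The 3 irisin values lay all above or all below the 3 PBS values for 10 members (12.8%), 3 above and 7 below, against 23.6% of all tested genes.

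Summed over all 87 members, levels were 10810, 10230 and 10230 CPM in irisin replicates 1 to 3, against 10400, 10520 and 11260 CPM in PBS replicates 1 to 3. The groups overlapped, with irisin replicate 1 above the first pair of PBS libraries and PBS replicate 3 the highest of all. The means were 10420 ± 334 CPM in irisin and 10730 ± 467 CPM in PBS (SD, n = 3 each), so the irisin mean was 97.2% of the PBS mean. As shares of all counts, without TMM factors, the members took 1.056, 0.988 and 0.988% in irisin replicates 1 to 3. In PBS replicates 1 to 3 they took 1.062, 1.071 and 1.16%, so on this scale all irisin shares lay below all PBS shares. By complex, the sums averaged 2965 ± 128 CPM in irisin and 3064 ± 262 CPM in PBS for complex I. For complex II they averaged 749.6 ± 22.0 CPM in irisin and 773.7 ± 43.9 CPM in PBS. Those of complex III were 1057 ± 56.3 CPM in irisin and 1096 ± 59.5 CPM in PBS, and those of complex IV 1931 ± 89.9 CPM in irisin and 1947 ± 94.7 CPM in PBS. In these complexes the groups overlapped. The ATP synthase sum was 3777, 3692 and 3697 CPM in irisin replicates 1 to 3 and 3825, 3863 and 3853 CPM in PBS replicates 1 to 3. Here the irisin libraries all lay below the PBS libraries, with a mean at 96.8% of the PBS mean. An exact permutation test of 3 libraries against 3 cannot go below p = 0.1.

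**Figure D2:**
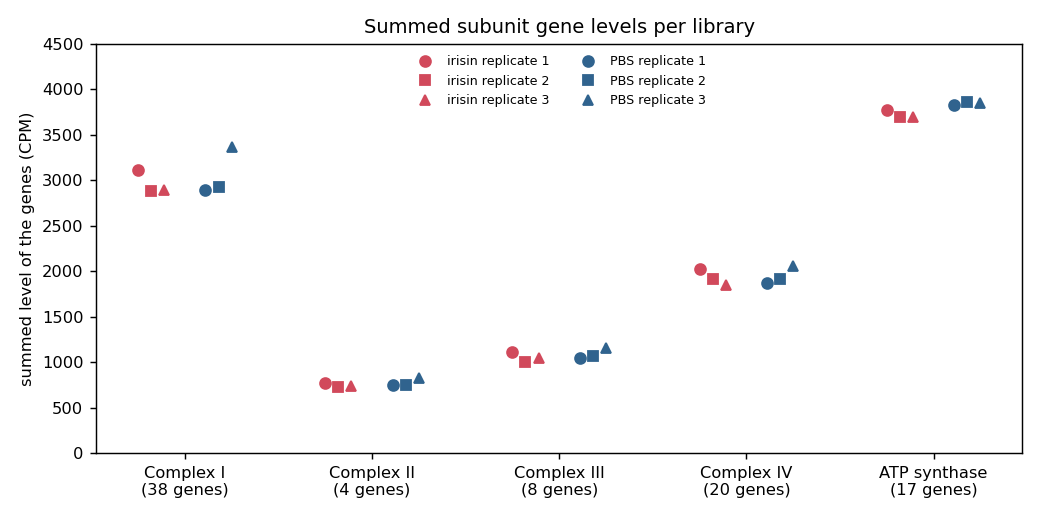
Summed level in CPM of all subunit genes of each complex in each library, irisin left of PBS, one symbol per replicate number. The groups overlap for complexes I to IV; the ATP synthase sums are 3692 to 3777 CPM in irisin and 3825 to 3863 CPM in PBS libraries.

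In complex I, the NADH dehydrogenase and largest complex of the chain, 35 of 38 members were tested and 0 were called. Their median LFC was -0.03, with a range of -0.32 to 0.23, and 33 of 35 intervals lay within 1.5-fold. The 7 nuclear core subunits, which carry the flavin and the iron-sulfur clusters, ran from -0.18 to -0.01. Ndufs1, the largest of these and the holder of several iron-sulfur clusters, had 128.5, 134.9 and 136.1 CPM in irisin libraries, against 135.4, 139.0 and 179.9 CPM in PBS libraries. PBS replicate 3 was the high one, the other values overlapped, and the LFC was -0.18 ± 0.11 (standard error, adjusted p = 0.447). Ndufv1, which binds the flavin and NADH, had 142.4, 132.4 and 149.3 CPM in irisin libraries and 151.8, 152.7 and 154.8 CPM in PBS libraries. All irisin values were lower, by an LFC of -0.11 ± 0.08 that did not pass the test (adjusted p = 0.561).

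At the upper end of complex I stood Ndufv3, a small accessory subunit next to the flavin module. It had 85.8, 81.0 and 77.5 CPM in irisin libraries, against 69.8, 69.4 and 68.9 CPM in PBS libraries. The groups did not overlap, and the LFC of 0.23 ± 0.09 had an unadjusted p of 0.0299 and an adjusted p of 0.201. At the lower end stood Ndufb4, an accessory subunit of the membrane arm, with 13.3, 17.4 and 14.8 CPM in irisin libraries and 16.8, 18.1 and 21.9 CPM in PBS libraries. Its groups overlapped in part, and its LFC was -0.32 ± 0.17 (adjusted p = 0.356). Of its exon sequence 37.0% of all 50-base words also occur in exons of other genes, so reads may be split between copies. Ndufa12, an accessory subunit of the matrix arm, had 41.3, 39.2 and 33.6 CPM in irisin libraries and 39.8, 47.1 and 54.3 CPM in PBS libraries. The groups overlapped at 1 library each, and the LFC of -0.30 ± 0.14 had an unadjusted p of 0.0464 and an adjusted p of 0.262. Its pseudogene row, left out of the members, took 32 to 41 counts in irisin libraries and 35 to 54 in PBS libraries.

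Complex II, the succinate dehydrogenase that also serves the citric acid cycle, had 4 of 4 members tested and 0 called. Their LFCs ran from -0.09 to -0.03, and all 4 intervals lay within 1.5-fold. Sdha, the flavoprotein that oxidizes succinate, had 448.4, 415.3 and 438.2 CPM in irisin libraries, against 437.4, 408.8 and 487.3 CPM in PBS libraries. The groups overlapped, with an LFC of -0.03 ± 0.09 (adjusted p = 0.905). Sdhb, the iron-sulfur subunit, averaged 141.6 ± 6.32 CPM in irisin and 150.6 ± 11.9 CPM in PBS (SD, n = 3 each), an LFC of -0.09 ± 0.09 (adjusted p = 0.706). Sdhd, a membrane anchor, averaged 112.5 ± 8.52 CPM in irisin and 114.7 ± 6.43 CPM in PBS, an LFC of -0.03 ± 0.09 (adjusted p = 0.934).

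Complex III, the cytochrome bc1 complex, had 8 of 8 members tested and 0 called, with LFCs from -0.17 to 0.09. Uqcrc1, a core protein of the matrix side, had 383.1, 350.6 and 368.3 CPM in irisin libraries and 354.8, 349.1 and 399.9 CPM in PBS libraries. The groups overlapped throughout, and its LFC was -0.00 ± 0.09 (adjusted p = 0.995). Uqcrfs1, the Rieske iron-sulfur protein, averaged 105.2 ± 8.17 CPM in irisin and 115.9 ± 7.39 CPM in PBS, an LFC of -0.14 ± 0.10 (adjusted p = 0.530). Uqcrq, a small ubiquinone-binding subunit, had 126.6, 121.0 and 118.5 CPM in irisin libraries, against 132.6, 131.7 and 146.9 CPM in PBS libraries. The irisin values were all lower, and the LFC of -0.17 ± 0.09 did not pass the test (adjusted p = 0.354). Uqcrb, a subunit of the coenzyme Q site, had the highest LFC of the complex, 0.09 ± 0.13, with overlapping groups (adjusted p = 0.798). The LFC of Uqcrb was -0.03 without irisin replicate 1 and -0.02 without PBS replicate 1. Of its 50-base words 43.2% also occur in other genes.

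In complex IV, cytochrome c oxidase, 14 of 20 members were tested. Its 11 common subunits, the widely expressed forms, ran from -0.22 to 0.22 in LFC and 0 of them were called. Cox4i1, the common form of subunit 4, had 385.5, 367.6 and 357.1 CPM in irisin libraries, against 360.5, 360.8 and 392.0 CPM in PBS libraries. The groups overlapped, and the LFC was -0.00 ± 0.08, with a 95% interval from -0.18 to 0.17 (adjusted p = 0.989). Cox5a, whose protein pairs with subunit 4 on the matrix side, had 70.1, 64.5 and 74.6 CPM in irisin libraries and 77.9, 82.7 and 84.1 CPM in PBS libraries. All irisin values were lower, and the LFC of -0.22 ± 0.10 had an unadjusted p of 0.0418 and an adjusted p of 0.246. Cox5b, which binds zinc, averaged 112.3 ± 9.49 CPM in irisin and 113.8 ± 8.03 CPM in PBS, an LFC of -0.02 ± 0.10 (adjusted p = 0.958). Cox6a1, Cox7a2 and Ndufa4 had overlapping groups and LFCs of -0.00, -0.08 and -0.00. Cox8a averaged 150.3 ± 3.53 CPM in irisin and 157.2 ± 2.38 CPM in PBS, without overlap, at an LFC of -0.06 ± 0.08 (adjusted p = 0.777).

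Cox4i2 was the member that rose. It had 59, 53 and 51 counts in irisin libraries, against 13, 9 and 5 in PBS libraries. The lowest irisin library lay above the highest PBS library, and the levels averaged 9.23 ± 1.13 CPM in irisin and 1.41 ± 0.483 CPM in PBS (SD, n = 3 each). The LFC was 2.66 ± 0.32, a 6.31-fold rise with a 95% interval from 3.92-fold to 10.4-fold (adjusted p = 7.12e-05). The gene passed the low-count filter through its irisin libraries. Under the alternatives that tested it, its LFC stayed between 2.43 and 2.93 and its adjusted p under the threshold. Cox4i2 lies on chromosome 2 (GRCm38, chr2:152754173-152765037, plus strand), with 788 exon bases in GENCODE M21, no exon overlap with another gene and 0% of its 50-base words found in other genes.

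Cox4i2 remained the minor form of subunit 4. It made up 2.39, 2.71 and 2.19% of the counts of the Cox4i1 and Cox4i2 pair in irisin libraries, against 0.521, 0.394 and 0.234% in PBS libraries. The exact (Clopper-Pearson) 95% intervals, which cover counting error only, ran from 1.64 to 3.53% over the irisin libraries and from 0.0761 to 0.889% over the PBS libraries, and did not meet. The mean share was 2.43 ± 0.261% in irisin and 0.383 ± 0.144% in PBS. The two-sided exact permutation p was 0.1, the smallest that 3 against 3 allows. Cox4i2 was already called from the same counts and Cox4i1 was level, so the shares restate the rise of Cox4i2. Neither the intervals nor this p are separate support for it. Per kilobase of exon, Cox4i2 reached 11.7 CPM in irisin and 1.79 CPM in PBS, and Cox4i1 238.8 CPM in irisin and 239.4 CPM in PBS.

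In lung and some other tissues Cox4i2 is also a gene of mural cells, the pericytes and smooth muscle of small vessels. Mural cell markers summed to 1872 to 2147 CPM in irisin libraries and 2237 to 2536 CPM in PBS libraries. Of 9 tested members 0 rose and 3 fell (Abcc9, Cspg4 and Vtn), beside 7.42% of all tested genes called. Those markers were chosen after the values were seen, and the part of mural cells in the Cox4i2 value was not tested. The fall of the mature adipocyte markers described above went with the same contrast, and its part in the member values was not tested.

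Cox7a2l, whose protein joins complexes III and IV into supercomplexes, had 102.6, 98.8 and 104.3 CPM in irisin libraries, against 88.4, 75.6 and 91.1 CPM in PBS libraries. The groups did not overlap, and the LFC of 0.26 ± 0.10 had an unadjusted p of 0.0212 and an adjusted p of 0.163. Without PBS replicate 3 it passed, with an adjusted p of 0.0485. With any other single library left out it did not pass. The adjusted p then ran from 0.259 without PBS replicate 1 to 0.459 without PBS replicate 2, and it was 0.306 by DESeq2.

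The muscle and brown fat isoforms were near the detection limit. Cox7a1 had 3, 7 and 5 counts in irisin libraries and 0, 1 and 1 in PBS libraries, too few to be tested. In sum this was 15 counts in irisin and 2 in PBS, a depth-scaled ratio of 7.86 with a 95% counting interval from 1.83 to 70.8. Tested without the low-count filter, Cox7a1 had an adjusted p of 0.225. Its share of the pair with Cox7a2 averaged 0.624 ± 0.338% in irisin and 0.0722 ± 0.0625% in PBS. The two-sided exact permutation p was 0.1, again the smallest possible. This share rests on the same few counts and is no separate support. Cox6a2 had 11, 11 and 7 counts in irisin libraries and 3, 18 and 2 in PBS libraries, with PBS replicate 2 the highest, and its LFC was 0.41 ± 0.68 (adjusted p = 0.838). This value rested on single libraries, since the LFC was 1.96 without PBS replicate 2 (adjusted p = 0.144), 0.03 without PBS replicate 3 and -0.02 without PBS replicate 1. Cox8b had 1 count, in PBS replicate 3, and Cox7b2 and Cox8c had 0 in all libraries. A count of 0 allows a level of up to 3 counts, which is 0.471 to 0.580 CPM in irisin libraries and 0.435 to 0.552 CPM in PBS libraries. Ucp1, the uncoupling protein that defines brown fat, had 0 counts in irisin libraries and 1 in PBS libraries. The other untested members were Cox6b2, Cox6c2, Ndufa11b, Ndufb4c and Ndufs6b.

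**Figure D3:**
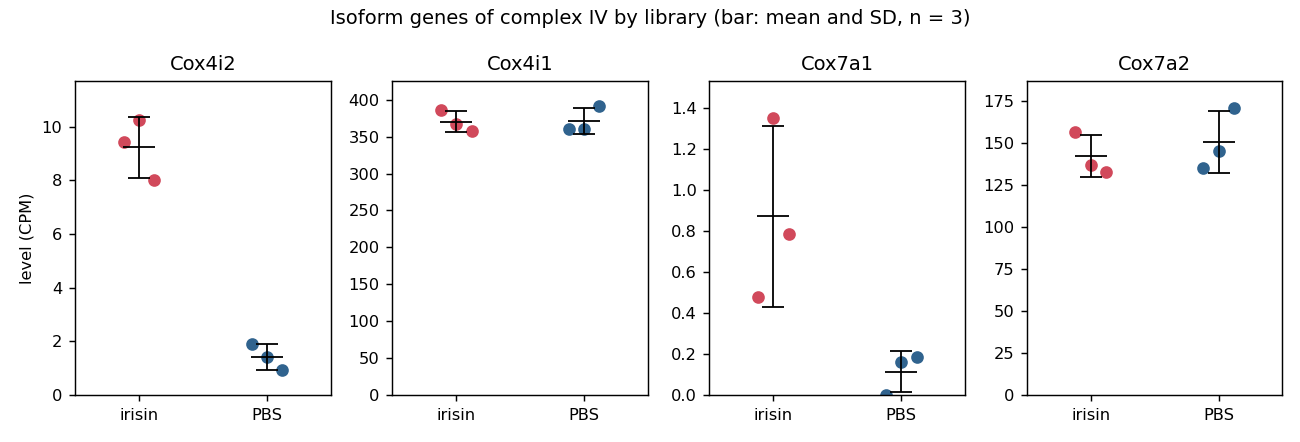
Level in CPM of the complex IV isoform genes Cox4i2 and Cox7a1 and of their common partners Cox4i1 and Cox7a2, in each library (points) with mean and SD (bars, n = 3), each panel with its own axis from 0. Cox4i2 averages 9.23 CPM in irisin and 1.41 CPM in PBS, while Cox4i1 averages 370.1 CPM in irisin and 371.1 CPM in PBS; Cox7a1 rests on 15 counts in irisin and 2 in PBS.

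In the ATP synthase, 17 of 17 members were tested and 0 were called, with LFCs from -0.35 to 0.06 and a median of -0.04. Atp5b, the catalytic beta subunit of the F1 head, had 1183, 1229 and 1247 CPM in irisin libraries, against 1286, 1302 and 1199 CPM in PBS libraries. The groups overlapped, and the LFC was -0.05 ± 0.08, with a 95% interval from -0.22 to 0.12 (adjusted p = 0.833). Atp5pb, of the peripheral stalk, had the highest LFC of the complex, 0.06 ± 0.08 (adjusted p = 0.816). Atp5g1, which encodes the ring of c subunits along with Atp5g2 and Atp5g3, averaged 66.8 ± 4.60 CPM in irisin and 73.4 ± 7.90 CPM in PBS, an LFC of -0.13 ± 0.11 (adjusted p = 0.624). Atp5l, a membrane subunit of the dimer interface, had the lowest LFC, -0.35 ± 0.27 (adjusted p = 0.580). Its level is uncertain, since 68.5% of its 50-base words occur in other genes, the only member above 50%.

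Levels per kilobase of exon differed between members, and are given here for the tested members matched to GENCODE M21. In complex I they ran from 6.71 CPM per kilobase in irisin and 7.63 in PBS for Ndufb2 to 246.8 in irisin and 251.0 in PBS for Ndufa1. In complex III they ran from 50.1 in irisin and 54.4 in PBS for Uqcrc2 to 121.8 in irisin and 133.4 in PBS for Uqcr11. In complex IV the lowest in PBS were Cox4i2, given above, and Cox6a2, at 1.79 each. The highest was Cox6a1, with 306.8 CPM per kilobase in irisin and 307.5 in PBS. In the ATP synthase it was Atp5b, with 287.9 in irisin and 298.0 in PBS. Exon lengths came from GENCODE M21, which matched 85 of 87 symbols and may differ from the annotation used for counting. The lengths take in all annotated exon bases of a gene, 5628 for Ndufb2, and a long annotation lowers the level per kilobase. In CPM, Ndufb2 averaged 37.8 in irisin and 42.9 in PBS, above Ndufb4 with 15.1 in irisin and 18.9 in PBS. The matched members lie on 19 chromosomes. Exons of 24 members overlap a gene on the opposite strand and those of 5 a gene on the same strand, and the strand setting of the counting is not given in the sources used here.

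**Figure D4:**
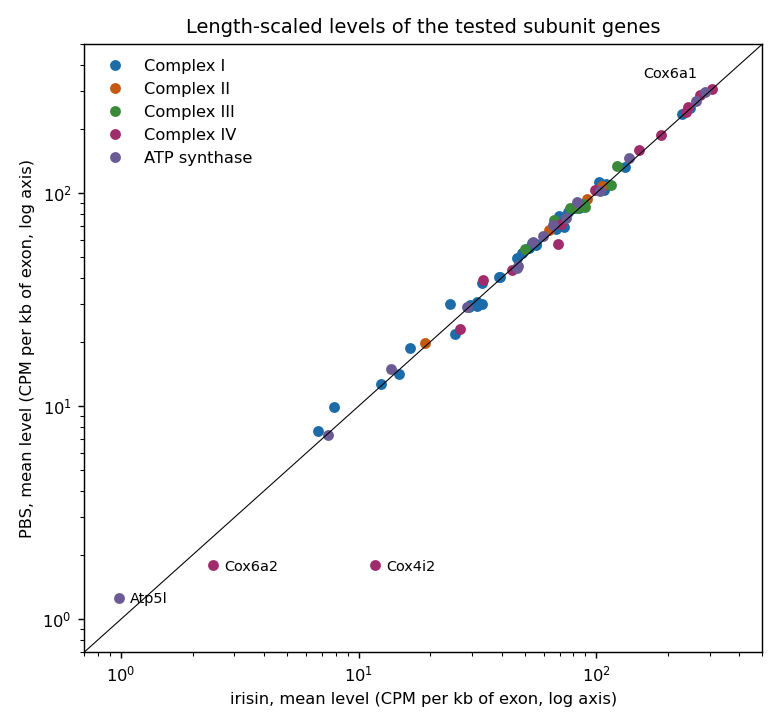
Mean level in CPM per kilobase of exon of the tested members matched to GENCODE M21, irisin on the horizontal and PBS on the vertical axis, both logarithmic; each point is a gene and the line marks equal levels. Points lie along the line from Atp5l to Cox6a1 (306.8 in irisin and 307.5 in PBS), and Cox4i2 lies far to the right of it (11.7 in irisin and 1.79 in PBS).

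Promoters of respiratory genes are known to bind the nuclear respiratory factors NRF-1 and GABP, an ETS family factor, and YY1. The window from 250 bases before to 50 after the start was available for 68 members (73 windows, RefSeq, GRCm38.p6). On either strand, the NRF-1 core GCGCATGC occurred in 13.7% of member windows, against 2.71% of all 32851 windows. The YY1 motif AAGATGGC occurred in 13.7% of member windows and 2.75% of all windows, and the ETS motif CCGGAAGT in 6.85% of member windows and 3.89% of all windows. At least one of these motifs stood in 32.9% of member windows and 8.83% of all. The hypoxia response core ACGTG occurred in 24.7% of member windows and 19.6% of all. No motif holds the letters of another, and the NRF-1 core can overlap its own reverse complement, as it does in Cox6a1. A match describes letters only. Cox4i1 and Cox4i2 have no entry. To show such promoters in members of at least 50 CPM with intervals within 1.5-fold, the 250 bases before the start are printed for 3 members. They are given on the gene's strand, with the NRF-1 core on either strand (Cox6a1 and Sdhb) or the ETS motif (Uqcr11) in capitals. Uqcr11 also holds an NRF-1 core that begins 4 bases before the start, runs past the printed stretch and is not in capitals. Cox6a1 lies at chr5:115348959-115349208 on the minus strand, Sdhb at chr4:140961021-140961270 on the plus strand and Uqcr11 at chr10:80406822-80407071 on the minus strand.
Cox6a1: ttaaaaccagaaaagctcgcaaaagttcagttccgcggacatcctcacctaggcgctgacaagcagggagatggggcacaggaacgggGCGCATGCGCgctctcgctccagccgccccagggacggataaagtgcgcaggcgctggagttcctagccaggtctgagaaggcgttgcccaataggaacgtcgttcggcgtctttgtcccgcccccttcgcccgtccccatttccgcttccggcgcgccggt
Sdhb: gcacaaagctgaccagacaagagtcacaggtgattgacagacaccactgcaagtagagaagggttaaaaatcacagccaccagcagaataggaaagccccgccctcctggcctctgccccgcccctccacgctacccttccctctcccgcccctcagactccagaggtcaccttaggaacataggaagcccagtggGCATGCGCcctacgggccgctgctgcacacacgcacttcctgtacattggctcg
Uqcr11: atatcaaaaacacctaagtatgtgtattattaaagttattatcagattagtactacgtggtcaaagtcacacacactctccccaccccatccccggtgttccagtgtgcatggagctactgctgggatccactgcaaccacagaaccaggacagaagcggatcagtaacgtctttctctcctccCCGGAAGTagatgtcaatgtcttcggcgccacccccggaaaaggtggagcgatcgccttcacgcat
Of these, Cox6a1 had 227.4, 216.6 and 202.1 CPM in irisin libraries and 207.4, 207.4 and 232.7 CPM in PBS libraries, with overlapping groups. The LFC of Uqcr11 was -0.13 (adjusted p = 0.525), with all irisin values below the PBS values.

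Genes around the chain were taken from lists chosen with earlier results of these data known. The 13 mitochondrial-encoded subunits, 11 of them tested, had 0 called higher and 0 lower, beside 7.42% of all tested genes called. Their median LFC was 0.14. Their summed level was 9362, 8911 and 8747 CPM in irisin libraries and 8275, 8876 and 8635 CPM in PBS libraries, with overlap. Without TMM factors, all mitochondrial-encoded genes took 0.916, 0.862 and 0.846% of counts in irisin replicates 1 to 3. In PBS replicates 1 to 3 they took 0.847, 0.905 and 0.891%. The direction of the small difference thus depends on the scaling. Several of the 13 subunits had few reads. Among the subunits, mt-Co1, the catalytic subunit of complex IV, had an LFC of 0.05 ± 0.08 (adjusted p = 0.848). Few reads fell on mt-Co2, mt-Co3 and mt-Atp6, with 4 to 26 counts per library, and mt-Nd4l and mt-Atp8 had too few to be tested.

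The counts of called genes in the next lists stand beside 7.42% of all tested genes called. At that share, lists of 5 to 26 genes would hold few calls, so such counts do not show that a list was unchanged. Assembly factors had 0 of 16 called for complex I and 0 of 5 for the ATP synthase. For complexes III and IV 1 of 26 was called, Higd1a, a hypoxia-induced inner membrane protein, with 52.1 ± 5.80 CPM in irisin and 37.7 ± 4.45 CPM in PBS (LFC 0.47 ± 0.13, adjusted p = 0.0425). Regulators of mitochondrial biogenesis had 0 of 15 called and a median LFC of -0.03. Among these, the coactivator Ppargc1a averaged 3.00 ± 0.283 CPM in irisin and 3.03 ± 0.400 CPM in PBS, and Nrf1, the gene of NRF-1, had an LFC of -0.01 ± 0.12. Coenzyme Q synthesis had 0 of 13 called, mitochondrial import 0 of 20 and the inner membrane carriers 0 of 7, with median LFCs of -0.20, -0.15 and -0.04. Electron carriers and other inputs had 0 of 12 higher and 1 lower, Etfb, a subunit of the electron transfer flavoprotein, with 46.1 ± 0.986 CPM in irisin and 63.4 ± 4.39 CPM in PBS (LFC -0.46 ± 0.10, adjusted p = 0.0156).

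Fuel pathways that feed the chain were counted in the same way, beside 7.42% of all tested genes called. In the list of the citric acid cycle and pyruvate dehydrogenase, 1 of 26 rose and 3 fell. Pdk1, the kinase that inhibits pyruvate dehydrogenase, rose to 81.5 ± 5.30 CPM in irisin, against 16.7 ± 4.06 CPM in PBS (LFC 2.27 ± 0.15, adjusted p = 8.86e-07). Pcx, which makes oxaloacetate from pyruvate, fell to 73.9 ± 4.74 CPM in irisin, against 128.9 ± 23.5 CPM in PBS (LFC -0.81 ± 0.13, adjusted p = 0.00122). The cycle enzymes Idh3a and Fh1 had LFCs of -0.44 ± 0.11 (adjusted p = 0.0319) and -0.34 ± 0.09 (adjusted p = 0.0376). In fatty acid oxidation 0 of 15 rose and 1 fell, Acsl1, which activates fatty acids, with 53.6 ± 3.43 CPM in irisin and 106.3 ± 16.2 CPM in PBS (LFC -0.99 ± 0.12, adjusted p = 0.000138). Pcx and Acsl1 are abundant in fat cells, and the mature adipocyte markers fell as well, and their part in these values was not tested.

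In the glycolysis list 10 of 15 genes rose and 0 fell, with a median LFC of 0.55. Pfkl, a phosphofructokinase, averaged 535.2 ± 35.3 CPM in irisin and 229.5 ± 5.24 CPM in PBS (adjusted p = 8.63e-07). Pgk1 averaged 184.1 ± 7.75 CPM in irisin and 89.8 ± 1.07 CPM in PBS (adjusted p = 4.72e-06). Of 10 known targets of hypoxia-inducible factors that bear on the chain, 6 rose and 0 fell, with a median LFC of 1.05. Those that rose were Ndufa4l2, Cox4i2, Pdk1, Bnip3, Egln3 and Higd1a, and the list overlaps the members and the lists above. This list and the glycolysis list were chosen with earlier results of these data known, and 7.42% of all tested genes were called. Ndufa4l2, a paralogue of Ndufa4 that is kept apart from the members, had 202, 141 and 195 counts in irisin libraries and 27, 13 and 16 in PBS libraries (LFC 3.32 ± 0.23, adjusted p = 5.28e-07). Bnip3, a receptor for the removal of mitochondria, averaged 100.1 ± 9.41 CPM in irisin and 40.6 ± 3.71 CPM in PBS (adjusted p = 8.33e-06). Egln3, an oxygen-sensing prolyl hydroxylase, averaged 8.78 ± 1.22 CPM in irisin and 2.23 ± 0.811 CPM in PBS (adjusted p = 0.000871).

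**Figure D5:**
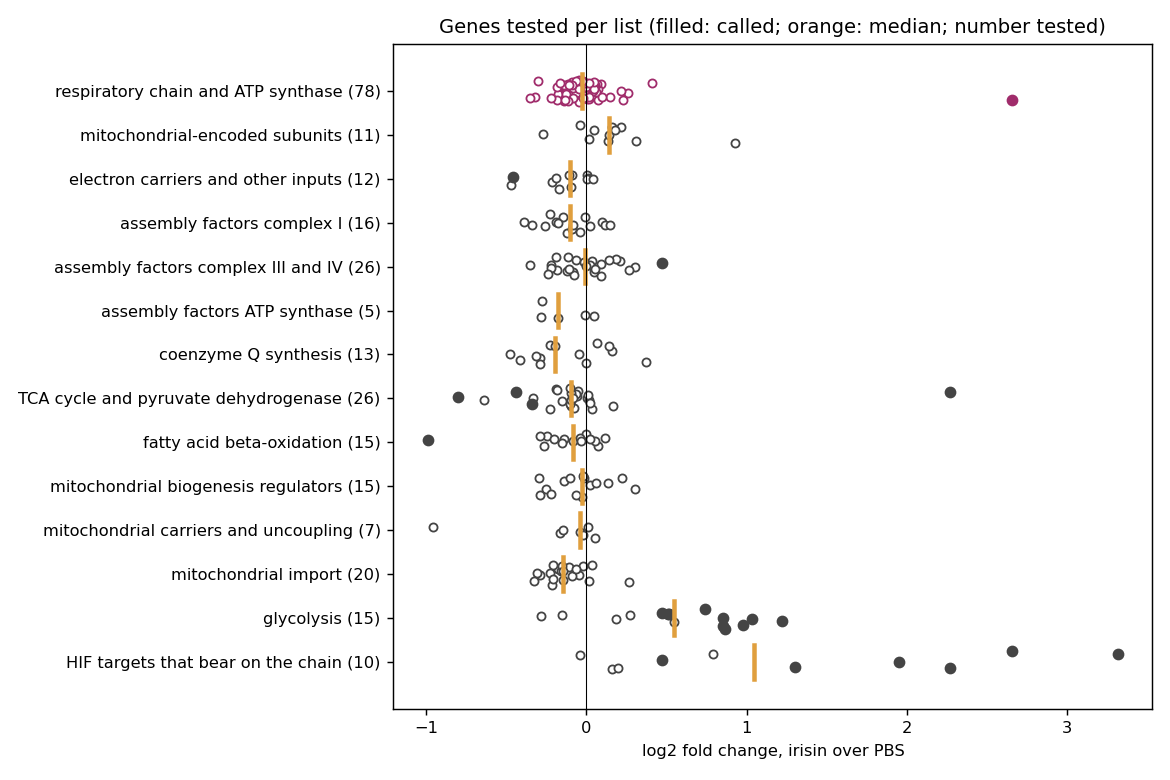
Log2 fold change, irisin over PBS, of each tested gene in the subunit set and in the lists around it; filled points have an adjusted p under 0.05, orange bars are medians and the number tested stands in brackets. The 78 subunit genes centre on -0.03 with Cox4i2 apart at 2.66, while the medians are 0.55 for glycolysis and 1.05 for the targets of hypoxia-inducible factors. The lists were chosen with earlier results of these data known, and the list of those targets holds Cox4i2 as well.

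Markers of other cell types were also counted, beside 7.42% of all tested genes called. Of 3 tested striated muscle markers 0 rose and 1 fell, Des. Of 3 tested brown adipocyte markers 1 rose and 2 were not called. The 1 that rose was Dio2, a thyroid hormone deiodinase. It had 2.83 ± 0.577 CPM in irisin and 0.760 ± 0.338 CPM in PBS (adjusted p = 0.0186), the latter near the detection limit. Leukocyte markers summed to 7.15 to 22.0 CPM in irisin libraries and 9.51 to 16.2 CPM in PBS libraries. Endothelial markers summed to 2.51 to 4.16 CPM in irisin libraries and 4.499 to 5.86 CPM in PBS libraries. Those of mesothelium summed to 38.6 to 49.96 CPM in irisin libraries and 35.0 to 41.5 CPM in PBS libraries. None of the tested leukocyte, endothelial or mesothelial markers was called.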

How the data were processed

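Polyadenylated RNA from cells lysed in a 96-well plate went through an ultra-low-input RNA-seq protocol, per the labels' protocols. STAR 2.7.3a, featureCounts and the build mm10 were used, per the submitters' processing notes. For the annotation release, strand and multi-mapping, settings are not given in the sources used. What the authors deposited is a table of raw read counts by gene symbol, without normalization.

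From these counts, edgeR 4.0.16 in R 4.3.3 (TMM factors, filterByExpr at a count minimum of 10) kept 12296 of the 31436 genes that had a count. Irisin was tested against PBS by the robust quasi-likelihood F-test, and p-values were adjusted by Benjamini-Hochberg over all tested genes, at a threshold of 0.05. Standard errors and 95% intervals came from the same fit. Alternatives were other scalings, DESeq2 1.42.0, limma-voom (limma 3.58.1) and other filters. Dispersion without robust estimation, a replicate block, each library left out and an adjusted p of 0.10 were run as well. The steps were first tested on simulated data.

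The members and lists were chosen with earlier results of these data known. In full were described the called members, the highest, lowest and most abundant of each complex (mean of at least 10 CPM), catalytic subunits and tissue isoforms, and from other lists up to 4 called members of lowest p. Other named genes were chosen after their values were seen. 1 member that the rule took is not reported here. Columns were matched to samples by title.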

Additional observations from a re-analysis of the deposited data

How the results depend on the processing

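Members called higher stayed at 1, and members called lower at 0, under other scalings, DESeq2, limma-voom, other dispersion, no low-count filter and an adjusted p of 0.10. At a count minimum of 50, 0 were called higher, since Cox4i2 was then not among the 75 members tested. Leaving out 1 library gave 1 to 2 members higher and 0 lower; the 2 came without PBS replicate 3, when Cox7a2l passed, and again with irisin replicate 1 left out as well (2 higher, 0 lower). All genes called numbered 912, ranged from 589 to 1290 with 1 library left out (589 without irisin replicate 2, 596 without irisin replicate 3, 605 without PBS replicate 1 and 1290 without PBS replicate 3), and reached 1680 with those 2 libraries left out. With total counts in place of TMM factors 422 genes were higher and 602 lower, against 516 and 396. For the 25 members that the naming rule took, 446 of 448 values under 18 alternatives kept their side of the threshold, and the other 2 were the Cox7a2l calls. The sign changed in 37 of these values, over 12 members, and 0 of the 37 were called. The deviations of same-numbered libraries from their group means had correlations of -0.24, 0.16 and -0.18. Over all pairs across the groups the highest was 0.36, between irisin replicate 1 and PBS replicate 3. With 3 libraries a group, these values cannot show whether the numbers mark a shared animal, culture or well. With the replicate block 1 member was higher (Cox4i2, adjusted p = 0.000425), 0 lower, and 691 genes were called. With 3 libraries a group, small changes may be missed, and at this depth 9 members were too low to be tested.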
